A study of Mus musculus with 38 samples.

Results

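Nanog is 1 of the 23475 genes counted in 25 bulk RNA-seq libraries of mouse embryonic stem cells (mESCs) that leave pluripotency under all-trans retinoic acid (RA). It was picked from earlier results of these data, because its counts stayed high under RA while other pluripotency genes fell. Its levels are therefore described below and not tested. The cells were E14, an established mESC line, grown without feeders in 2i medium with LIF and then moved to basal N2B27 medium with 0.25 µM RA, and no group carries a genetic change. Bulk libraries were made from 2 samples of untreated mESCs in 2i medium, from whole cultures at 6, 12, 24, 36, 48, 60, 72, 84 and 96 h of RA, and from fractions sorted on the surface proteins CD24 and PDGFRA. The fractions were the 4 CD24 quartiles (Q1 lowest) of PDGFRA- cells at 48 h, the 3 CD24 terciles (T1 lowest) of PDGFRA- cells at 72 h, PDGFRA+ CD24- cells at 72 h, and 2 biological replicates each of ectoderm-like (PDGFRA- CD24+) and XEN-like (PDGFRA+ CD24-) cells at 96 h. Both sorted types were also grown on in N2B27 with EGF and FGF2, the ectoderm-like cells for 5 passages and the XEN-like cells, as floating aggregates, for 3 weeks. Single cells were measured in 9 plates by SCRB-seq, which counts molecules by tags near the 3′ end of each mRNA, and at 4 time points by SMART-seq2, which covers the whole mRNA. The SCRB-seq plates held 2448 wells with more than 2000 molecule counts (UMIs) among 3456, and the SMART-seq2 files held 339 cells. Except for mESCs and the 96 h sorts, each condition was 1 culture, so those differences have no replicate check.

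Nanog encodes a homeodomain transcription factor that holds mESCs in the naive, self-renewing state together with Oct4 (gene Pou5f1) and Sox2. In the embryo it is kept in the epiblast and lost from the primitive endoderm, the lineage that XEN-like cells resemble, where Gata6 is switched on. It is known for uneven levels between mESCs, which 2i medium evens out, and cells lose it as they leave pluripotency.

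The gene (ENSMUSG00000012396) lies on the forward strand of chromosome 6, bases 122707489 to 122714633 of GRCm38. Pou5f1 and Sox2 proteins are known to bind a joined octamer and SOX element before its start, which is why the 250 bases before the start are shown, with the octamer TTTGCAT and the SOX letters ACAATG in capitals (RefSeq promoter table, GRCm38.p6, chr6:122707239-122707488, forward strand).

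Nanog promoter: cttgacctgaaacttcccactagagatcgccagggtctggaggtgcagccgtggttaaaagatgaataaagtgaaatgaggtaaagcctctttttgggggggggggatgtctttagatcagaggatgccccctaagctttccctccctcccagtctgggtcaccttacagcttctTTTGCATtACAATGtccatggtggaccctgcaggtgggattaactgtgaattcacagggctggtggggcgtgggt

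The octamer lies 75 to 69 bases before the first annotated start (base 122707489) and the SOX letters 67 to 62 bases before it. Another annotated mRNA, Nanog-201, starts further along, at base 122707568. Of 32851 mouse promoters of the same table searched on both strands, 1355 (4.12%) hold the octamer, 3512 (10.7%) hold the SOX letters and 3 (0.00913%) hold the octamer followed by the SOX letters with at most 1 base between them. These matches describe letters and not binding.

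Another sequence is shown because other genes hold it too. The main Nanog mRNA (Nanog-201, 2211 bases, coding bases 216 to 1130) holds, after its coding part and in its last exon, a stretch that many other mRNAs also hold. Its 3 blocks cover mRNA bases 1228 to 1291, 1294 to 1392 and 1487 to 1511, which end 920, 819 and 700 bases before the mRNA's end. The 25-base word below lies in the middle block at chr6:122713719-122713743 (GRCm38, forward strand) and is held, on either strand, by 941 genes of the GENCODE annotation.

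shared word: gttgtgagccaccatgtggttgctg

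Words of this kind belong to the B2 family of short interspersed repeats, which lie in the ends of many mouse mRNAs. In all, 1541 annotated genes share at least 1 word of 25 bases with the Nanog mRNA, and 1084 of them are in the bulk table. The coding part shares such words with 3 genes, the pseudogenes Nanog-ps1 and Nanog-ps2 and the predicted gene Gm15901. Gene totals do not show which part of the mRNA a UMI came from, and how reads matching several mRNAs were assigned is not given in the sources used here. The Nanog UMI counts are therefore uncertain to the extent that this stretch was read.

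Bulk Nanog counts were read from 1063809 to 2459424 UMIs per library and are given as CPM, the UMIs of a gene scaled to a common library total, with exact Poisson intervals that cover counting error only. In untreated mESCs, Nanog stood at 163 CPM (373 UMIs) and 155 CPM (356 UMIs), a mean of 159 ± 5.80 (SD, n = 2). After 6 h of RA the level was 185 CPM, after 12 h 233 CPM, after 24 h 382 CPM (95% interval 355 to 410) and after 36 h 366 CPM. It then stood at 281 CPM (48 h), 196 CPM (60 h), 120 CPM (72 h), 94.4 CPM (84 h) and 81.5 CPM (96 h, interval 69.3 to 95.2). Thus Nanog counts were above both mESC libraries from 6 h to 60 h and below both from 72 h on. At 24 h the count was 2.40 times the mESC level (95% counting interval 2.16 to 2.66), at 48 h 1.77 times (1.59 to 1.97) and at 96 h 0.512 times (0.429 to 0.609). In bulk samples, fewer cells that express a gene and less of its RNA per cell cannot be told apart.

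**Figure D1:**
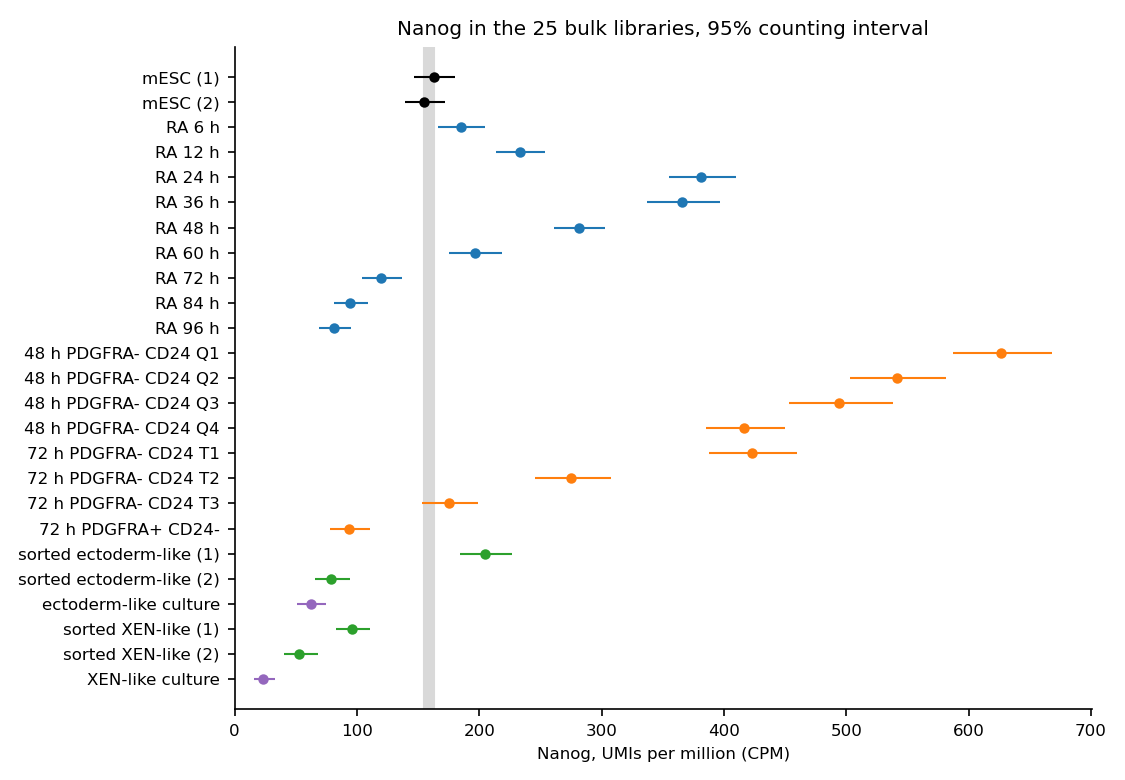
Nanog CPM (x axis) in each of the 25 bulk libraries (y axis, replicate number in brackets), with exact 95% Poisson intervals as bars and the range of both mESC libraries in grey. The 4 CD24 quartiles at 48 h, at 417 to 627 CPM, lie to the right of all the other libraries but the 72 h CD24 T1 library at 423 CPM, and the XEN-like culture lies lowest at 23.5 CPM.

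Among PDGFRA- cells, Nanog counts ran against CD24, a surface protein of neuroectodermal cells. At 48 h the quartiles from low to high CD24 held 627, 541, 494 and 417 CPM. The highest quartile held 0.665 times the level of the lowest (95% counting interval 0.601 to 0.735). At 72 h the terciles held 423, 275 and 175 CPM, with T3 at 0.414 times T1 (0.353 to 0.484). PDGFRA+ CD24- cells of the same hour held 93.3 CPM, less than any PDGFRA- tercile of that hour, and T1 exceeded them 4.53-fold (3.73 to 5.54). A fall at every step of both series was shared by 218 of the 4436 genes with a mean of at least 20 CPM (4.91%), Nanog among them, and by 4 of the 13 naive genes in that set (Zfp42, Dppa2, Dppa4 and Tcl1) and 0 of the 8 partner genes.

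The fractions did not add up to the whole cultures of the same hour. All 4 quartiles at 48 h lay above the unsorted 48 h library, by 1.48-fold (1.33 to 1.65) for Q4 to 2.23-fold (2.02 to 2.46) for Q1. T1 lay 3.53-fold (3.01 to 4.14) above the unsorted 72 h library. The fractions were separate libraries, so sorting, library preparation and culture cannot be told apart here.

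Nanog was still counted in every library at 96 h and beyond, and 1 of these libraries lay above both mESC libraries. Sorted ectoderm-like cells held 205 CPM and 78.8 CPM (mean 142 ± 88.9, SD, n = 2). Sorted XEN-like cells held 96.0 CPM and 52.9 CPM (74.4 ± 30.5, n = 2). The ectoderm-like libraries differed 2.59-fold from each other (counting interval 2.11 to 3.21), so the types overlapped: replicate 2 of the ectoderm-like cells was below replicate 1 of the XEN-like cells. As for their labels, all 11 primitive endoderm genes were higher in XEN-like than in ectoderm-like cells, where 6.98% of all genes were. All 11 ectoderm genes were lower, where 5.71% of all genes were. Both counts are from the edgeR test given below and include Pdgfra and Cd24a, which encode the sorted proteins. Against mESCs, 8 of the 11 primitive endoderm genes were higher in ectoderm-like cells too (9.82% of all genes). In XEN-like cells, 3 of the 11 ectoderm genes were higher than in mESCs (12.3% of all genes). The summed primitive endoderm genes stood at 452 and 1735 CPM in ectoderm-like replicates 1 and 2 and at 11322 and 6397 CPM in XEN-like replicates 1 and 2, and their part in the spread of Nanog was not tested. Within a replicate number, ectoderm-like cells held 2.13 times the XEN-like level in replicate 1 and 1.49 times in replicate 2. The ectoderm-like culture held 62.1 CPM (116 UMIs) and the XEN-like culture 23.5 CPM (34 UMIs, interval 16.2 to 32.8), or 0.147 times the mESC level. In the ectoderm-like culture, 6 fibroblast genes (Col3a1, Col1a1, Col1a2, Dcn, Postn and Thy1) summed to 3766 CPM, against 3.9 to 21.1 CPM in the other 24 libraries, and their part in its Nanog value was not tested. The sum came from Col3a1, Postn, Dcn and Col1a1 (506 to 1452 CPM), while Thy1 stood at 5.89 CPM and Col1a2 at 1.07 CPM, under its level of up to 10.2 CPM elsewhere.

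Ordered by level, the 22 conditions ran from the 48 h Q1 fraction to the XEN-like culture, a 26.7-fold range, and 13 of them were above both mESC libraries. Most neighbours in that order were not separated. For 12 of the 21 neighbouring pairs the counting interval of the ratio held 1, and 20 pairs differed by less than the 2.59-fold seen between replicates. The exception was the ectoderm-like culture over the XEN-like culture, at 2.65-fold.

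Pluripotency genes with a known tie to Nanog took a different course in the same libraries. They were grouped by role: 13 partners of the Nanog protein and core factors, and 20 other naive and general pluripotency genes. Pou5f1, the core partner of Nanog, stood at 265 and 292 CPM in mESCs and then at 233 CPM (24 h), 56.5 CPM (48 h) and 29.2 CPM (96 h). Sox2, which pairs with Oct4 on DNA, stood at 85.7 and 131 CPM in mESCs and 45.8 CPM at 24 h. Esrrb, an orphan nuclear receptor and target of Nanog, stood at 66.1 and 80.1 CPM in mESCs and then at 17.9 CPM (24 h) and 2.85 CPM (48 h). Each of these 3 was lower at 24 h than in either mESC library, where Nanog was at its highest in the whole cultures.

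Of the 8 partners with a mean of at least 20 CPM, 1 was at least 1.5-fold higher at 24 h (Tet1, a DNA demethylase), where 18% of all 4436 genes were, and 2 were at least 1.5-fold lower (Sox2 and Nr0b1), where 8.52% of all genes were. The median log2 ratio was -0.21 for the partners and 0.14 for all genes. Of 13 naive genes, 7 were lower at 24 h: Klf2, Klf4, Tfcp2l1, Tbx3, Zfp42, Dppa5a and Tcl1. Another 4 were higher: Dppa2, Dppa4, Utf1 and the translation regulator Lin28a. Klf2, a factor sustained by the MEK inhibitor in 2i, stood at 224 and 444 CPM in mESCs and 18.4 CPM at 24 h. Zfp42 (Rex1), a widely used marker of the naive state, stood at 1109 and 789 CPM in mESCs, 494 CPM (24 h) and 117 CPM (48 h).

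By 48 h, 6 of the 8 partners and 10 of the 13 naive genes were at least 1.5-fold lower than in mESCs, against 9.6% of all genes, while 0 partners and 1 naive gene (Lin28a) were higher, against 27.1%. In the CD24 fractions, naive genes ran the same way as Nanog. In Q4 over Q1 at 48 h, 10 of 13 naive genes and 3 of 8 partners were at least 1.5-fold lower, against 8.9% of all genes. In T3 over T1 at 72 h, 11 of 13 naive genes, 2 of 8 partners and 9 of 10 primitive endoderm genes were lower, against 13.6% of all genes. These counts rest on 1 library per fraction.

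The 96 h sorts allowed a test, with edgeR's quasi-likelihood test and Benjamini-Hochberg adjustment over 8945 genes. In ectoderm-like cells against mESCs, 7 of 12 partners tested fell and 0 rose, and 18 of 20 naive genes fell and 1 (Lin28a) rose, against 9.27% of all genes lower and 9.82% higher. In XEN-like cells against mESCs, 7 of 12 partners fell and 0 rose, and 17 naive genes fell and 1 (Lin28a) rose, against 10.5% lower and 12.3% higher. Nr0b1, a partner of Nanog and Oct4, fell by 7.93 on the log2 scale in ectoderm-like cells (adjusted p = 1.1e-05) and fell by 6.72 in XEN-like cells (adjusted p = 3e-05). Without ectoderm-like replicate 2, 3 partners and 15 naive genes fell in ectoderm-like cells.

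Between the sorted types, XEN-like cells were higher in 8 of 20 naive genes, against 6.98% of all genes, and lower in 0, against 5.71%. The 8 were Klf2, Klf4, Klf5, Tbx3, Zfp42, Dppa5a, Tcl1 and Stat3. Among the partners Pou5f1 was higher by 4.29 on the log2 scale (adjusted p = 0.0025) and Sox2 was lower, at -4.36 (adjusted p = 0.00086). Pou5f1 itself stood at 60.4 and 16.4 CPM in XEN-like cells and at 3.33 and 0.646 CPM in ectoderm-like cells, so the groups did not overlap, unlike those of Nanog. The naive count depended on single libraries: 3 naive genes were higher without ectoderm-like replicate 1 or without XEN-like replicate 1, 4 without ectoderm-like replicate 2 and 7 without XEN-like replicate 2. Without ectoderm-like replicate 2, 1 naive gene was lower. By the study's methods the replicates of all 3 groups are biological, and the p-values measure the spread between these samples.

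The SCRB-seq plates, also counted near the 3′ end, gave a rise and fall like that of the bulk libraries. Per 10000 UMIs, Nanog took 3.37 UMIs at 0 h (282 cells), 5.85 at 6 h, 5.83 at 12 h, 7.48 at 24 h (290 cells), 7.51 at 36 h, 6.74 at 48 h, 6.71 at 60 h, 3.54 at 72 h and 3.21 at 96 h (137 cells). The exact Poisson interval was 3.11 to 3.64 at 0 h, 7.06 to 7.93 at 24 h and 2.81 to 3.65 at 96 h. The level was therefore above 0 h from 6 h to 60 h beyond counting error, and not at 72 or 96 h. At 60 h a single well held 160 Nanog UMIs among 51050, and without it the level was 5.95. The same 384 well names recur on all 9 plates, and 0 wells had the same counts on different plates.

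With every cell thinned to 2000 UMIs, the share of cells with a Nanog UMI was 51.4% at 0 h (exact binomial interval 45.4 to 57.4%), 66.3% at 6 h, 67% at 12 h, 76.2% at 24 h (70.9 to 81%), 71% at 36 h, 72.2% at 48 h, 67% at 60 h, 49.4% at 72 h and 35% at 96 h (27.1 to 43.6%). Without thinning the share was 75.9% at 0 h, 91.4% at 24 h and 64.2% at 96 h. The variance over the mean of thinned Nanog counts stayed between 1.34 and 1.78 at the 9 hours. Zfp42 took another path over the same wells. Its thinned share was 46.1% at 0 h, 71.3% at 6 h, 48.6% at 24 h, 8.30% at 48 h and 2.19% at 96 h. That of Pou5f1 was 36.2% at 0 h, 47.6% at 24 h, 10.1% at 48 h and 0% at 96 h (0 of 137 cells).

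SMART-seq2 gave the opposite course for Nanog. RPKM values of a cell were brought to 1 common total, the median of untreated cells, and the cells had passed a minimum read number set by the authors, so the depth of each cell is not known beyond that. The mean was 267 RPKM at 0 h (SD over cells 125, n = 82 cells), 152 RPKM at 12 h (SD 95.5, n = 86), 142 RPKM at 24 h (SD 143, n = 89) and 34.8 RPKM at 48 h (SD 28.6, n = 82). These means were 1.75-fold, 1.88-fold and 7.67-fold lower than at 0 h. The medians were 274, 127, 88 and 26.9 RPKM. Nearly every cell still had a Nanog value over 1 RPKM: 81 of 82 cells at 0 h, 86 of 86 at 12 h and 87 of 89 at 24 h. At 48 h it was 73 of 82 cells (89%, exact binomial interval 80.2 to 94.9%). By the study's methods these were paired reads of 25 bases, the length of the shared words. Reads from the shared stretch or the pseudogenes may thus enter these values too, which was not tested. Cells over 100 RPKM made up 92.7% at 0 h, 59.3% at 12 h, 47.2% at 24 h and 1.22% at 48 h.

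By SD and coefficient of variation, the spread between cells was widest at 24 h. The coefficient of variation of Nanog RPKM was 0.467 at 0 h, 0.626 at 12 h, 1.01 at 24 h and 0.822 at 48 h. At 24 h the 10th percentile was 22.9 RPKM and the 90th 355 RPKM, and at 48 h they were 0.986 and 74.9 RPKM, further apart as a ratio. At 48 h the 10 cells highest in Pdgfra had a median of 27.7 RPKM, the 29 highest in Cd24a 33.8 RPKM, and the other 46 cells 24.0 RPKM, with quartiles that overlap in all 3 sets. Of the 82 cells, 3 were in both the Pdgfra and the Cd24a set.

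**Figure D2:**
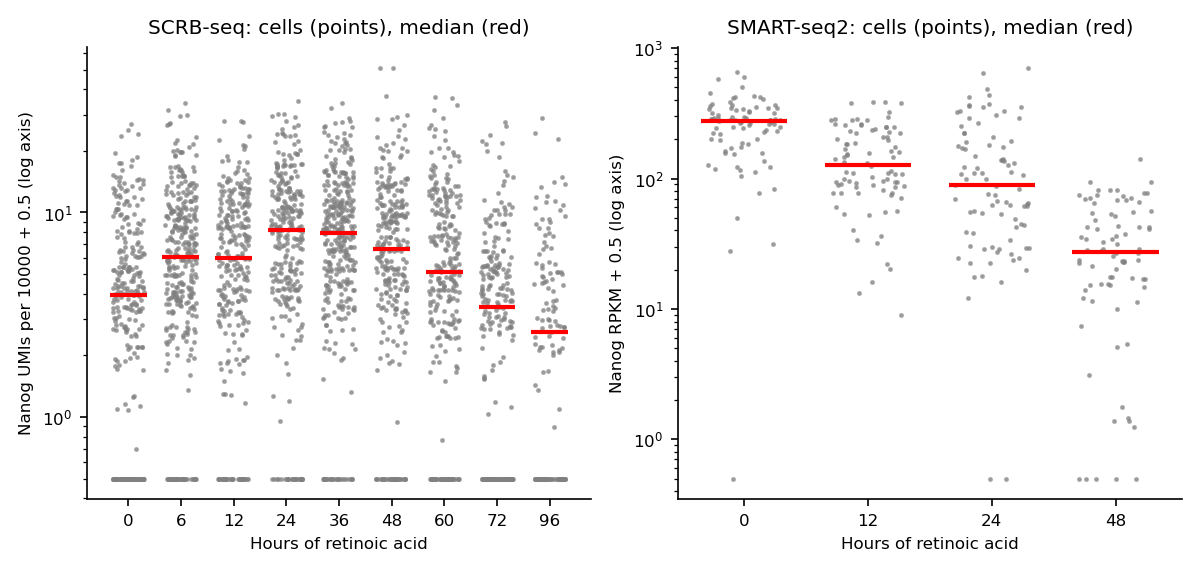
Nanog in single cells (points) with the median (red line) at each hour of RA (x axis), as SCRB-seq UMIs per 10000 (left) and SMART-seq2 RPKM (right), both with 0.5 added and on log axes. SMART-seq2 medians go down from 274 RPKM at 0 h to 26.9 RPKM at 48 h, while SCRB-seq levels are higher at 24 h than at 0 h.

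On the log2 scale against 0 h, Nanog stood at 0.55 in bulk, 0.79 in SCRB-seq and -0.81 in SMART-seq2 at 12 h. At 24 h the values were 1.26, 1.15 and -0.91. At 48 h they were 0.82, 1.00 and -2.94. Assay and culture differ together between the SMART-seq2 cells and the others, so they cannot be told apart. This split was rare among genes. Of 4053 genes measured in both, those at least 1.5-fold higher in bulk and at least 1.5-fold lower in SMART-seq2 numbered 1 at 12 h (0.0247%), 3 at 24 h (0.074%) and 7 at 48 h (0.173%). Nanog was among them at 24 h and 48 h, and at 12 h its bulk ratio of 1.47 fell short of 1.5. The gene at 12 h was Zic2, of a zinc finger factor of the epiblast. The other 2 at 24 h were Eif3j1, of a translation initiation factor, and Prpf19, of a splicing factor. Of 27 pluripotency genes with enough counts, 0 were split this way at any of these hours. Those at least 1.5-fold lower in both assays numbered 4 at 12 h, 6 at 24 h and 17 at 48 h. Of the 4053 genes, 85, 151 and 297 were lower in both at these hours.

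**Figure D3:**
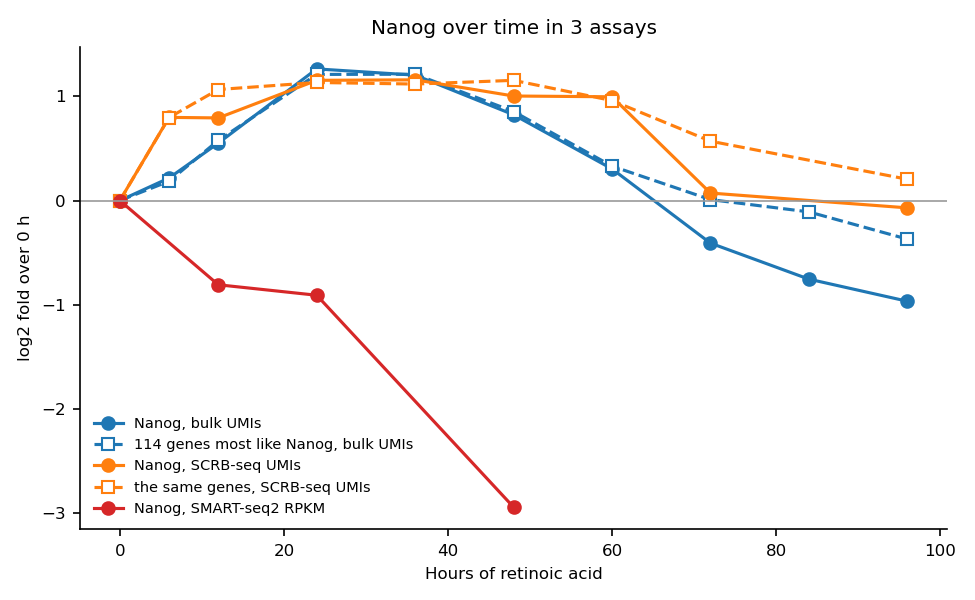
Log2 fold of Nanog over 0 h (y axis) against hours of RA (x axis) in bulk UMIs, SCRB-seq UMIs and SMART-seq2 RPKM (solid lines), with the summed UMIs of the 114 genes most like Nanog (dashed lines). At 24 h Nanog is at 1.26 in bulk and 1.15 in SCRB-seq and at -0.91 in SMART-seq2, and the dashed lines lie close to the 3′ counts up to 60 h.

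The genes whose bulk pattern was most like that of Nanog were not pluripotency genes. Over the 25 libraries and 4435 other genes, the highest Pearson correlations of log2(CPM + 1) were those of Brd8 (0.984), Fbxo32 (0.983), 2500004C02Rik (0.982), Zfp870 (0.981) and Ccdc85b (0.980). Brd8 encodes a chromatin regulator and Fbxo32 a ubiquitin ligase of muscle. In contrast, the correlation was 0.44 for Pou5f1, 0.49 for Sox2, 0.40 for Zfp42 and -0.60 for Klf4, and highest among the lists for Dppa2 (0.85) and Dppa4 (0.83). The lowest were those of Idh2 (-0.91), Anxa4 (-0.90), Acaa2 (-0.90), Clic1 (-0.89) and Gstm2 (-0.89). Libraries share preparation, depth and cell origin, so these values describe likeness alone.

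Most of the genes most similar to Nanog share sequence with its mRNA. All 5 hold 25-base words of the shared stretch described above, though not always the printed word. Brd8, Zfp870 and Ccdc85b hold them on the same strand and Fbxo32 and 2500004C02Rik on the other. Of the 114 genes correlated over 0.9 with Nanog, 105 had a transcript in the annotation, and 91 of these (86.7%) share a word. Words on the same strand were held by 35 genes and on the other by 61, with some in both sets. The share was 79 of 558 (14.2%) for correlations of 0.5 to 0.9, 143 of 1319 (10.8%) for 0 to 0.5, and 182 of 2227 (8.17%) for 0 or less. Without the gated libraries it was 81% over 0.9, and with the time course and mESC libraries alone it was 77.1%. Of all 495 genes that share a word, 91 correlated over 0.9 and 182 at 0 or less. Anxa4, among the 5 least alike, holds 2 words on the same strand. Among the listed pluripotency genes Stat3 alone shares a word, and among the signal and primitive endoderm genes Fgfr1 and Sparc do.

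**Figure D4:**
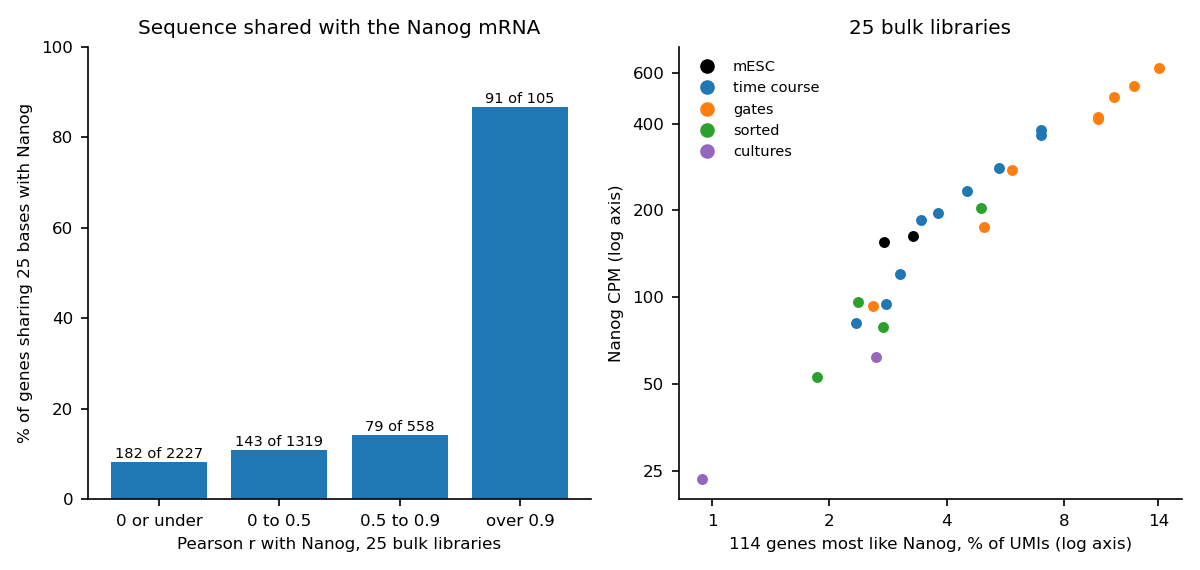
Left, percent of genes that share a 25-base word with the Nanog mRNA (y axis) by their correlation with Nanog over the bulk libraries (x axis), with counts above the bars. Right, Nanog CPM (log axis) against the percent of UMIs taken by the 114 genes most like it (log axis) in each bulk library, where both run from the XEN-like culture (23.5 CPM and 0.940%) to the 48 h Q1 fraction (627 CPM and 14.1%).

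Together the 114 genes took 3.28% and 2.76% of UMIs in mESCs, 6.98% at 24 h, 2.34% at 96 h, 14.1% in the 48 h Q1 fraction and 0.940% in the XEN-like culture. Their sum moved with Nanog: at 24 h it was 2.31 times the mESC level against 2.40 for Nanog, and at 48 h 1.81 against 1.77. At 96 h it was 0.774 times against 0.512 for Nanog. Nanog UMIs per 1000 UMIs of these genes lay between 4.98 and 5.61 from mESCs to 60 h of RA. They lay between 3.37 and 3.95 from 72 h to 96 h, and between 2.36 and 4.16 in the 96 h sorts and the cultures. In the 48 h quartiles from Q1 to Q4 they were 4.46, 4.47, 4.59 and 4.25. The summed genes thus also fell across CD24, from 4.66 times the mESC level in Q1 to 3.25 times in Q4. At 72 h the ratio was 4.32, 4.67 and 3.51 in T1 to T3 and 3.60 in PDGFRA+ CD24- cells. On the SCRB-seq plates 113 of these genes took 9.52% of UMIs at 0 h, 20.9% at 24 h and 11% at 96 h. As the genes were taken for their likeness over these libraries, the bulk values are a description.

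SMART-seq2 reads over whole mRNAs showed less of this rise. The genes were chosen on bulk values, so a larger rise there may come from the choice, and the contrast is a description. The summed RPKM of 111 of the genes was 1.32, 1.40 and 1.30 times the 0 h level at 12, 24 and 48 h. The median ratio per gene at 24 h was 2.29 in bulk (114 genes) and 1.46 in SMART-seq2 (111 genes, RPKM + 1). Genes were also taken for any word of the stretch and not for their likeness. Of these, 172 of 495 (34.7%) were at least 1.5-fold higher at 24 h in bulk, against 575 of 3714 genes without such a word (15.5%). In SMART-seq2 the shares were 16.6% and 10.4%. At 48 h the shares lay closer, at 36.2% against 25.7% in bulk and 17.8% against 16.8% in SMART-seq2. Cxcr2, a chemokine receptor of neutrophils, was picked out after its values were seen. It holds 40 words of the Nanog mRNA on the other strand. Cxcr2 stood at 528 CPM in mESCs, 1237 CPM at 24 h and 108 CPM in the XEN-like culture. It had a UMI in 96.1% of thinned SCRB-seq cells at 0 h. Its SMART-seq2 level was 23.5 RPKM at 0 h and 42.4 RPKM at 24 h. The part of the shared stretch in the Nanog counts was not tested.

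Over single SMART-seq2 cells, Nanog ran with a few naive genes, Zfp42 first. Within each SMART-seq2 time point, cells high in Nanog tended to be high in Zfp42, with a Spearman correlation of 0.26 at 0 h, 0.44 at 12 h, 0.57 at 24 h and 0.11 at 48 h (82 to 89 cells that share a library preparation). By the mean over the 4 time points Zfp42 ranked first of 8927 genes (0.346), ahead of Jam2 (0.297), an adhesion protein, Gpx4 (0.295), a lipid peroxide reductase, Dppa5a (0.284), an RNA-binding protein of pluripotent cells, and Slc2a3 (0.244), a glucose transporter. The correlation with Pou5f1 was 0.19, -0.06, 0.18 and 0.01, and with Sox2 -0.10, 0.14, 0.04 and -0.02. The median over the 20 naive genes was 0.073, 0.12, 0.144 and -0.011 at the 4 hours, and over all genes it lay between -0.050 and 0.014. Over the 13 partners it was 0.071, 0.005, 0.179 and 0.011, at 24 h above that of the naive genes. Of 20 naive genes, 11, 15, 17 and 9 correlated above 0 at 0, 12, 24 and 48 h, of 13 partners 9, 7, 12 and 7, and of 11 ectoderm genes 5, 9, 1 and 4. Of all genes, 48%, 55.1%, 46.8% and 32.7% did. By the mean over the 4 time points, the genes most like Nanog in bulk had a median of 0.010 (99 genes). That of 11 partners was 0.014, of 14 naive genes 0.072 and of all 8927 genes -0.014.

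**Figure D5:**
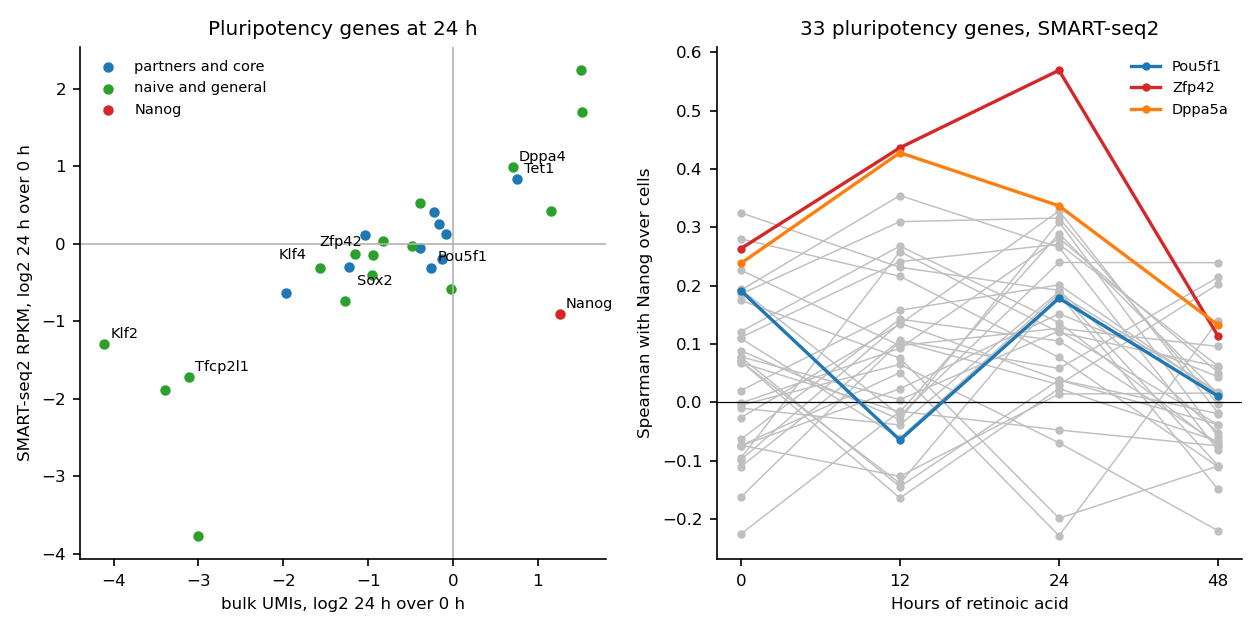
Left, log2 fold at 24 h over 0 h in bulk UMIs (x axis) and SMART-seq2 RPKM (y axis) for Nanog and pluripotency genes of at least 20 CPM in mESCs, where Nanog alone lies far to the right of 0 and below 0. Right, Spearman correlation with Nanog over SMART-seq2 cells (y axis) at each hour (x axis, not to scale) for 33 pluripotency genes, with Zfp42 highest at 24 h (0.57).

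Over thinned SCRB-seq cells the Spearman correlation of Nanog with the summed UMIs of 24 pluripotency genes lay between -0.25 and -0.02 at all 9 hours. With the summed UMIs of the 113 genes most like it in bulk it lay between 0.23 and 0.47. Zfp42 alone gave -0.07 to 0.005. These counts are sparse, about 0.6 to 1.7 Nanog UMIs per thinned cell. Nanog counts were lower in cells with more primitive endoderm UMIs: at 60 h cells above the median of that sum held 1.1 Nanog UMIs a cell (98 cells) and the others 1.53 (175 cells). At 72 h the values were 0.582 and 0.985, and at 96 h 0.400 and 0.764. At 48 h they were 1.54 and 1.71, and the counting intervals overlapped at 48 h and 96 h. The direction was the same across the summed UMIs of the 20 naive genes, so it was not particular to primitive endoderm UMIs. Cells above the median of naive gene UMIs held 1.547 Nanog UMIs at 48 h and the others 1.705. At 60 h these values were 1.17 and 1.47, at 72 h 0.719 and 0.885, and at 96 h 0.511 and 0.633. Their intervals overlapped at each hour. Across ectoderm UMIs, cells above the median held 1.504 Nanog UMIs at 48 h and the others 1.737. At 60 h these values were 1.08 and 1.59, and at 72 h 0.713 and 0.906. At 96 h the direction turned, with 0.689 above the median and 0.513 at or under it. The counting intervals across ectoderm UMIs were apart at 60 h and overlapped at the other hours.

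Genes next to Nanog on chromosome 6 took different courses in bulk. The nearest, Slc2a3, lies 13176 bases past the end of Nanog on the other strand and stood at 542 CPM in mESCs, 301 CPM (24 h) and 739 CPM (96 h). Dppa3 (Stella), a maternal and germline factor that shares its locus with Nanog, stood at 39.1, 3.99 and 1.03 CPM. Gdf3, a signaling ligand of the TGF-beta family, stood at 114, 112 and 8.20 CPM. Among other protein-coding genes within 250 kb, Mfap5, a microfibril protein, stood at 5.25 CPM in mESCs, 17.9 CPM (24 h, 3.42-fold) and 5.13 CPM (96 h). Rimklb stood at 12.0, 18.4 (1.54-fold) and 7.18 CPM, and the correlation with Nanog over the 25 libraries was 0.65 for Mfap5 and 0.72 for Rimklb. Necap1 stood at 24.2, 29.4 and 41 CPM, and Apobec1, Foxj2, C3ar1, Clec4a1 and Clec4a3 at no more than 4.48 CPM in mESCs or at 24 h.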

How the data were processed

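Values came from 38 samples. The bulk and SCRB-seq values are UMI counts per gene, which the authors made with BWA 0.7.4 against RefSeq mRNAs (mm10) and deposited without normalization. The SMART-seq2 values are RPKM, made by the authors with TopHat and Cuffnorm and deposited per cell. Decimal commas there were read as points. In the bulk table, 2 damaged genes and 2 repeated names were left out.

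Bulk counts were scaled to CPM. The 3 groups of 2 libraries (both 96 h sorts and mESCs) entered 1 fit of edgeR 4.0.16 (R 4.3.3, TMM factors, default count filter, threshold 0.05), with DESeq2 1.42.0 as an alternative. On simulated data with 200 genes changed by 2 on the log2 scale, 164, 169 and 148 were recovered for ectoderm-like against mESC (8700 genes), XEN-like against mESC (8628) and XEN-like against ectoderm-like (8659). Single libraries were compared by a 1.5-fold difference with 1 CPM added. SCRB-seq wells of over 2000 UMIs were used and thinned to 2000 UMIs. Shared words came from GENCODE transcripts of GRCm38, the assembly that mm10 names.

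Named genes were Nanog, lists set by role, the 5 genes most and the 5 least correlated with Nanog over bulk libraries, the 5 most correlated over SMART-seq2 cells, and coding genes within 250 kb, of which 1 is not reported here. Members and lists were chosen with earlier results of these data known.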

Additional observations from a re-analysis of the deposited data

Results flagged for a closer look

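Nanog at 24 h of RA against 0 h moved in opposite directions in 2 kinds of data, with a log2 ratio of 1.26 in bulk UMIs and -0.91 in SMART-seq2 RPKM. The difference was not tested, since each assay has 1 culture at 24 h, and assay and culture cannot be told apart. No group held the 4 samples needed to look for a sample far from the others.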

How the results depend on the processing

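Over 151 alternatives, 115 values stayed within a set tolerance, 33 moved further and 3 changed direction. For bulk ratios the tolerance was the spread between replicates, and for counts of genes it was 1.5 times. For SCRB-seq levels, shares of cells and shared words it was a counting interval. SMART-seq2 ratios had an interval over cells, and correlations over cells a fixed margin. Only the first of these rests on replicates. The log2 ratio of Nanog in sorted ectoderm-like cells over mESCs, -0.17, was 0.36 relative to Gapdh and ran from -1.01 to 0.36 when single libraries were left out, being above 0 without ectoderm-like replicate 2. The ectoderm-like culture over mESCs, -1.36, was 0.025 relative to Gapdh and -2.08 relative to Actb. Relative to Actb, 96 h over mESCs was -1.78 and XEN-like cells over mESCs -2.09, and relative to Gapdh the XEN-like culture over mESCs was -1.87. XEN-like over ectoderm-like cells, -0.93, ran from -1.46 to -0.083 when single libraries were left out, the latter without ectoderm-like replicate 1.

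DESeq2 called 1111 genes in ectoderm-like cells against mESCs, where edgeR called 1707, and 717 between the sorted types, where edgeR called 1135. Leaving out single libraries gave 862 to 1349 genes for ectoderm-like cells against mESCs, 1265 to 1664 for XEN-like cells against mESCs (2042 with all) and 262 to 657 between the types.

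The sorted types share replicate numbers, which the labels do not tie to a common day. With the replicate block, 2610 of 8167 genes were called between them, 1324 higher and 1286 lower in XEN-like cells. The Nanog log2 ratio was -0.83. Of 9 partners tested with the block, 2 were higher and 6 lower in XEN-like cells (1 and 1 of 12 without it). Of 10 naive genes tested with the block, 7 were higher and 1 lower. The differences of replicate 1 minus replicate 2 correlated at 0.45 over 4348 genes.

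In SCRB-seq, the mean over cells gave -0.40 at 96 h over 0 h in place of -0.07, and shares without thinning were 75.9% at 0 h, 91.4% at 24 h, 88.4% at 48 h and 64.2% at 96 h. Without the well of most Nanog UMIs, chosen after seeing the data, 60 h gave 5.95 per 10000. In SMART-seq2, the median gave -1.11 at 12 h, -1.64 at 24 h and -3.35 at 48 h, and the mean of log2 values gave -1.40 (RPKM + 1) and -1.45 (RPKM + 0.1) at 24 h and -3.36 and -3.62 at 48 h.

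Of the 5 genes most like Nanog in bulk, 1 remained with the time course and second mESC library and 2 with Spearman correlation. Of genes correlated over 0.9, 77.1% shared a word with the time course and mESC libraries alone and 74.4% without gated libraries and the first sorted replicates, both chosen after seeing the data. Bulk depth, 34 to 937 Nanog UMIs per library, sets the counting intervals. Most conditions have 1 library, so culture-to-culture spread is unknown for them.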
